A study of Mus musculus with 6 samples.

Results

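Antibody-secreting cells send large amounts of Ig from the ER to the Golgi, and the genes described here encode the machinery of that step. They are 33 of the 54446 genes in the deposited table: 12 genes of the COPII coat, 7 of the COPI coat, 3 KDEL receptors, 4 cargo receptors and 7 members of the p24 family. The list was chosen by name for what the proteins do, but with earlier results of these data known. Naive splenic B cells were isolated by negative selection from *Tent5c* KO mice and their WT littermates, aged 12 to 15 weeks and of mixed C57BL/6J X CBA background. All cultures received IL-4 (20 ng/ml) together with LPS (at 20 µg/ml) for 7 days, which drives B cells to divide, switch Ig class and develop towards plasma cells. *Tent5c* encodes a cytoplasmic poly(A) polymerase. The KO mice came from heterozygous matings and carried the KO in the whole animal, so it was also present while the B cells developed. Each of the 3 replicates was 1 KO and 1 WT littermate and is also the batch of the labels (pairs 1, 2 and 3), which gives 3 KO and 3 WT libraries of RNA depleted of rRNA. The sex of each mouse is not given in the sources used here.

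COPII is the coat that buds vesicles from ER exit sites. The GTPase SAR1, loaded by the exchange factor PREB, recruits the inner layer of SEC23 and SEC24, the latter being the subunit that binds cargo, and the outer layer of SEC13 and SEC31 then closes the cage, while SEC16 organises the exit site. Proteins without a signal for SEC24 of their own use receptors: LMAN1 (ERGIC-53) with its soluble partner MCFD2 carries glycoproteins, LMAN2 (VIP36) is a related lectin, SURF4 carries soluble proteins, and the p24 proteins (TMED genes) work as cargo adaptors in both directions. COPI, a coatomer of subunits recruited by ARF GTPases, returns membrane and escaped ER proteins, and the KDEL receptors bind the C-terminal signal of ER chaperones such as BIP so that COPI can bring them back. XBP1, a transcription factor of the unfolded protein response, is known to raise many genes of the secretory pathway during plasma cell development.

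The libraries held between 5393558 and 6793520 fragments on genes (median 6607728.5), the smallest being the WT library of pair 3. *Tent5c* itself does not separate the genotypes in these values, with 1255, 767 and 1585 normalized counts (fragments divided by the size factor of the library) in the WT libraries of pairs 1, 2 and 3 and 1993, 993 and 1170 in the KO libraries, a log2 fold change of 0.20 with a standard error (SE) of 0.19. KO and WT therefore stand here for the labels, and the table does not show on which exons these fragments lie. The B cell marker *Ms4a1* had 12045, 11886 and 9152 normalized counts in the WT libraries and 10696, 10161 and 11806 in the KO libraries. *Cd79a*, *Cd79b*, *Pax5* and *Cd22* were also present in every library. Of 6 B cell markers, 3 had a negative log2 fold change, beside 49.8% of the 12322 genes with a mean of 10 or more. Their values ran from −0.21 to 0.16. For 1 of the 6, all KO libraries lay below all WT libraries, beside 3.44% of those genes. Of 10 T cell markers, 2 reached a mean normalized count of 10, *Lck* with 121 and *Thy1*, the highest, with 354. The other T cell markers had means of 1.78 to 4.77. The list summed to between 460 and 561 in WT and 457 and 555 in KO, most of it from *Thy1* and *Lck*. Of 10 myeloid markers, 3 reached a mean of 10 (*Lyz2*, *Adgre1* and *Cd68*, the highest with a mean of 47.1). The myeloid list summed to 117 to 166 in WT and 67.7 to 158 in KO, with *S100a8*, *S100a9* and *Ly6g* at 0 in all libraries. Of the erythroid markers, *Hbb-bt* had a mean of 1.90 normalized counts, and *Hbb-bs*, *Hba-a1*, *Hba-a2* and *Slc4a1* were at 0 throughout.

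All members except *Kdelr3* were well measured in these cells. The other 32 had a mean over the 6 libraries of between 208 and 2451 normalized counts, with a median of 626. To compare genes, the values were divided by the length of the exons in kb, a scale on which long annotated exons lower a gene. Levels on this scale ran from 4.95 to 369 per kb in WT, with a median of 134. *Surf4* stood highest with 369 ± 51.7 (SD, n = 3), followed by *Kdelr2* with 339 ± 55.2 (SD, n = 3) and *Sar1a* with 338 ± 16.9 (SD, n = 3), and the WT libraries of these 3 genes overlapped in level. *Sec24a* was the lowest of the coat genes, with 27.2 ± 1.98 per kb (SD, n = 3). Within COPII, the GTPase genes and *Sec13* were therefore far above the SEC24 genes on this scale. Of the SEC24 transcripts, *Sec24c* made up 51.4% ± 3.0 (SD, n = 3) of the summed level per kb in WT, *Sec24d* 19.4% ± 4.0, *Sec24b* 18.4% ± 1.1 and *Sec24a* 10.9% ± 1.4. The SEC23 pair was more even, with 56.9% ± 3.5 (SD, n = 3) for *Sec23b*, and so was the SAR1 pair, with 54.6% ± 1.9 (SD, n = 3) for *Sar1a*. *Kdelr3* took 0.92% ± 0.20 (SD, n = 3) of the KDEL receptor level, beside 63.1% ± 1.4 for *Kdelr2* and 36.0% ± 1.2 for *Kdelr1*.

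**Figure D1:**
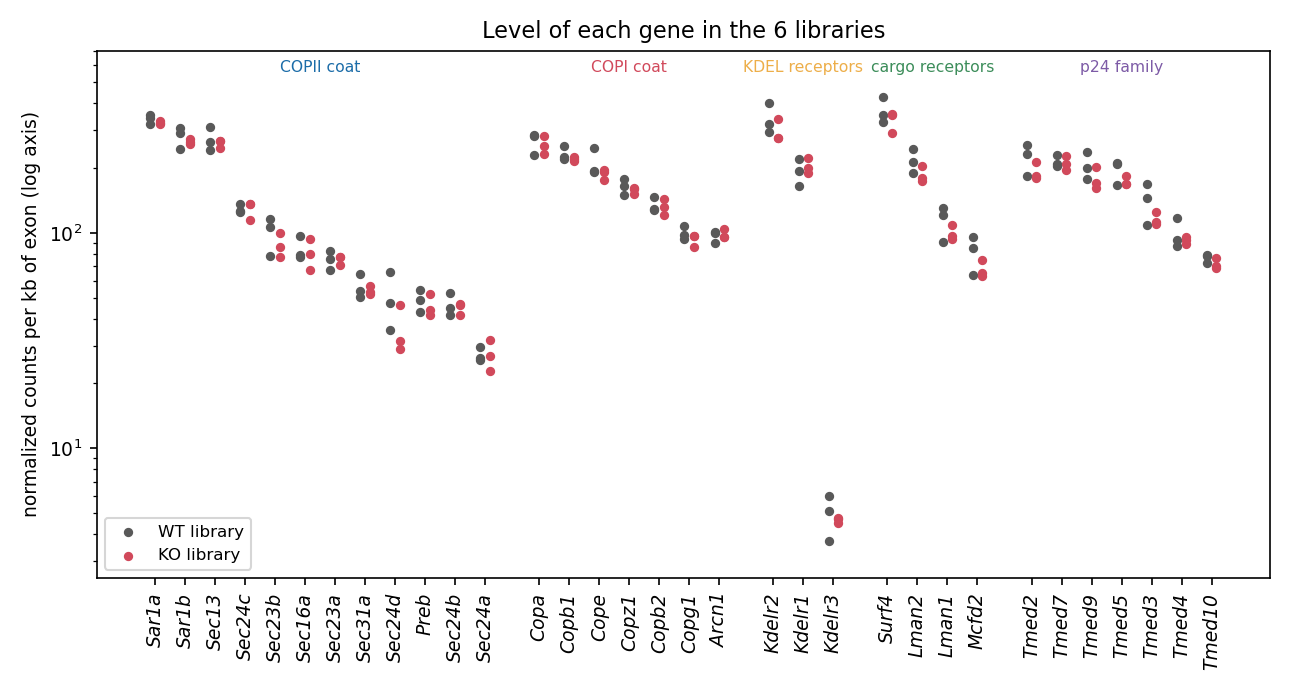
Level of each of the 33 genes in normalized counts per kb of exon (log axis) by role, with 1 point for each WT library (grey) and each KO library (red). *Kdelr3* lies far below the others at 4.95 per kb in WT, and for every gene the KO points overlap the WT points.

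The comparison of KO with WT asks whether cells without TENT5C carry a different amount of this export and retrieval machinery. No member was called. With limma on log2(normalized count + 1), the pair as a block and Benjamini-Hochberg adjustment over 12322 genes whose mean normalized count reached 10, the smallest adjusted *p* of a member was 0.970, and 0% of all genes tested passed 0.05 in either direction. At an unadjusted *p* under 0.05, *Sec24d* alone was lower in KO, that is 1 of 32 members beside 3.03% of all genes tested, and 0 members were higher, beside 1.67%. In edgeR 0 members were lower at an unadjusted *p* under 0.05, beside 2.99% of the same 12322 genes. In DESeq2 1 member was, beside 0.786% of 24684 genes. That share also counts genes below a mean of 10, so it is not on the same genes as the others. None passed an adjusted 0.05 in edgeR (0% of all genes) or in DESeq2 (0.222% of the genes with an adjusted *p* lower, 0.0101% higher). No member had all KO libraries below all WT libraries, beside 3.44% of all genes tested, or all above, beside 3.39%. The fitted log2 fold changes were nonetheless mostly just below 0. They were negative for 29 of 32 members, beside 49.8% of all genes tested, with a median of −0.084 beside 0.00067 over all genes, and ran from −0.46 (*Sec24d*) to 0.088 (*Kdelr1*). The 95% interval of 31 of 32 members lay within a 1.5-fold change in either direction, the exception being *Sec24d*. The share of all genes tested with such an interval was not taken, so this count only describes the precision for the members.

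Pair 3 gave most of the size of this shift. Over the 32 members, pairs 1, 2 and 3 gave median log2 ratios of KO to WT of −0.034, 0.0071 and −0.27, beside medians of −0.0093, 0.000025 and 0.0032 over all genes tested. In pair 3, 26 members were lower in KO, beside 49.5% of all genes, against 22 in pair 1 (53.2% of all genes) and 16 in pair 2 (49.9%). In all, 7 of 32 members (21.9%) were lower in KO in every pair, beside 13.1% of all genes tested: *Sec23b*, *Sec24d*, *Sar1a*, *Copb1*, *Copg1*, *Lman2* and *Tmed2*. None was higher in every pair, beside 11.7%. Without pair 3, the median log2 fold change was −0.023 and 20 of 32 members were negative, beside 51.2% of all genes tested. Without pair 1 these were −0.11 and 27 (48.5%), and without pair 2 they were −0.12 and 30 (50.8%). None passed an adjusted 0.05 in these fits either, beside 1.36% of all genes lower without pair 1, 0.00812% without pair 2 and 0% without pair 3.

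**Figure D2:**
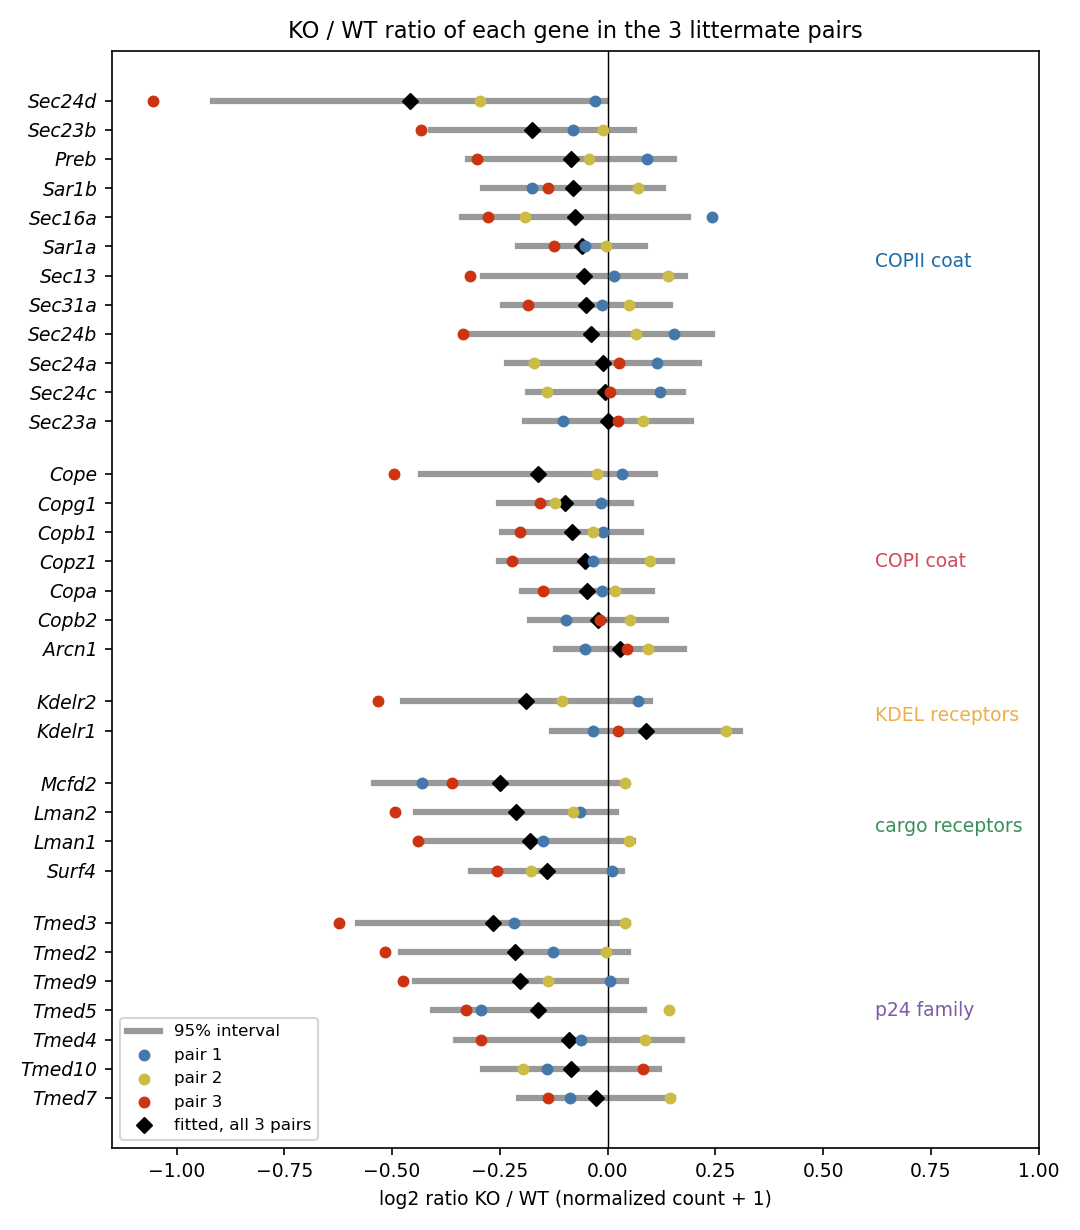
Log2 ratio of KO to WT for the 32 genes tested, with 1 coloured point for each littermate pair, a diamond for the fitted log2 fold change and a grey bar for its 95% interval. Pair 3 (red) is the lowest point for most genes, at −1.05 for *Sec24d*, while pairs 1 and 2 scatter around 0.

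For the 12 COPII genes the median log2 fold change was −0.058. Their summed level was 6723, 6064 and 7414 normalized counts in the WT libraries of pairs 1, 2 and 3 and 6846, 5952 and 6328 in the KO libraries. *Sec24d*, a cargo-binding subunit (chromosome 3 of GRCm38, 123267455 to 123365641, plus strand), had 297, 225 and 414 normalized counts in WT and 292, 183 and 199 in KO. It was lower in KO in each pair, but hardly so in pair 1, and the KO library of pair 1 lay above the WT library of pair 2, so the groups overlapped. The fit put *Sec24d* at −0.46 on the log2 scale (SE 0.19, 95% interval −0.92 to −0.0034), with −0.029, −0.30 and −1.05 in the pairs. Without pair 3 it was −0.16, and without pair 1 it was −0.68 with an adjusted *p* of 0.111 in limma. In relative terms, *Sec24d* took 19.4%, 15.3% and 23.4% of the SEC24 level per kb in the WT libraries and 17.8%, 13.6% and 13.3% in the KO libraries. The other SEC24 genes gave values around 0: the log2 fold changes of *Sec24a*, *Sec24b* and *Sec24c* were −0.010, −0.039 and −0.0052, and their 95% intervals together spanned −0.32 to 0.24.

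*Sec23b*, the more abundant of the SEC23 genes, had 669, 491 and 733 normalized counts in WT and 632, 488 and 543 in KO. It was practically equal in the libraries of pair 2 and differed mainly in pair 3, the fitted log2 value being −0.17 (SE 0.098). Its paralog *Sec23a*, with 400, 324 and 366 in WT and 373, 343 and 372 in KO, was at 0.0012 (SE 0.080), with a sign that depends on the scaling of the libraries. *Sar1a*, only slightly the higher of the SAR1 GTPase genes per kb, was among the steadiest members, with 1281, 1195 and 1318 normalized counts in WT and 1235, 1191 and 1209 in KO. The 95% interval of its log2 fold change ran from −0.21 to 0.087. For *Sar1b*, *Preb*, *Sec16a*, *Sec13* and *Sec31a* the log2 fold changes were −0.081, −0.085, −0.076, −0.056 and −0.050. Each had pairs with ratios of opposite sign, and *Sec13*, *Sec16a*, *Sec31a* and *Preb* were above 0 without pair 3, at 0.076, 0.025, 0.017 and 0.024.

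The 7 COPI genes gave values near equality, the median log2 fold change being −0.052 and, without pair 3, 0.0028. *Copa*, the alpha subunit and the most abundant member in normalized counts, had 2674, 2156 and 2652 in WT and 2651, 2183 and 2392 in KO. Pairs 1 and 2 were nearly equal, and the pairs differed from each other more than the genotypes did. The log2 fold change of *Copa* was −0.048 with a 95% interval of −0.20 to 0.10. *Cope*, the epsilon subunit, had the lowest value of the coatomer, −0.16 (SE 0.11), from 639, 651 and 831 normalized counts in WT and 654, 641 and 589 in KO. It rested on pair 3, without which it was 0.0043. For *Copb1*, *Copb2*, *Copg1* and *Copz1* the log2 fold changes were −0.083, −0.021, −0.099 and −0.052. *Arcn1*, the delta subunit, was at 0.029 with a 95% interval of −0.12 to 0.18.

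The KDEL receptors did not share a direction. *Kdelr1* had 365, 309 and 411 normalized counts in WT and 356, 375 and 418 in KO, the highest log2 fold change of all members at 0.088 (SE 0.091). Its KO library was above WT mainly in pair 2, and the groups overlapped. *Kdelr2*, the most abundant of the family, had 587, 539 and 733 in WT and 617, 501 and 507 in KO (log2 fold change −0.19, SE 0.12), and without pair 3 it was −0.017. *Kdelr1* took 37.3%, 35.6% and 35.0% of the KDEL receptor level per kb in WT and 35.7%, 41.8% and 44.2% in KO, so that the share was higher in KO in pairs 2 and 3 and lower in pair 1. *Kdelr3* was left out of the test by its low level, with 8.50, 5.23 and 7.22 normalized counts in WT and 6.61, 6.67 and 6.36 in KO, where all KO libraries lay within the range of the WT libraries.

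For the 4 cargo receptors the median log2 fold change was −0.20, the lowest of the groups, and −0.078 without pair 3. The difference between the groups of members was not tested. Their summed level was 4150, 3566 and 4770 normalized counts in WT and 3917, 3393 and 3614 in KO, lower in KO in each pair with log2 ratios of −0.083, −0.072 and −0.40. *Lman2* (chromosome 13, 55343833 to 55362783, minus strand), a lectin that cycles in the early secretory pathway, had 1690, 1508 and 1942 normalized counts in WT and 1616, 1427 and 1378 in KO. It was lower in KO in every pair, by little in pairs 1 and 2, and the groups overlapped. The log2 fold change of *Lman2* was −0.21 (SE 0.097, 95% interval −0.45 to 0.020). *Lman1*, the receptor for glycoproteins, had 1065, 802 and 1156 in WT and 961, 830 and 852 in KO, and its partner *Mcfd2* had 241, 180 and 271 in WT and 178, 185 and 211 in KO. Both were lower in KO in pairs 1 and 3 and slightly higher in pair 2, at −0.18 (SE 0.099) and −0.25 (SE 0.12) on the log2 scale. *Surf4*, which carries soluble cargo, had 1154, 1077 and 1401 in WT and 1162, 951 and 1173 in KO. Its log2 fold change was −0.14 (SE 0.073), with pair 1 at 0.010.

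The 7 p24 genes all had fitted values below 0, none of which passed the test, with a median of −0.16 on the log2 scale and −0.067 without pair 3. *Tmed3* (chromosome 9, 89699206 to 89705068, minus strand) had the second lowest value of all members, with 415, 309 and 482 normalized counts in WT and 357, 318 and 312 in KO. The KO library of pair 2 was slightly above its WT littermate, and the fitted log2 value was −0.27 (SE 0.13, 95% interval −0.58 to 0.048). *Tmed2*, the p24 beta subunit, had 586, 466 and 649 in WT and 536, 465 and 453 in KO (log2 fold change −0.22, SE 0.11). *Tmed9* had 691, 611 and 816 in WT and 694, 555 and 587 in KO (log2 fold change −0.20, SE 0.10). In both genes pair 3 gave the largest part of the difference, and their values without it were −0.065 and −0.067. *Tmed5* and *Tmed4* had log2 fold changes of −0.16 and −0.090, with pair 2 above 0. *Tmed10*, the delta subunit that partners with *Tmed2*, was the only p24 gene above 0 in pair 3, with log2 ratios of −0.14, −0.20 and 0.082. *Tmed7* was at −0.027, and 9.48% of its exon bases overlap those of *Ticam2* on the same strand, where fragments cannot be assigned to either gene alone.

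**Figure D3:**
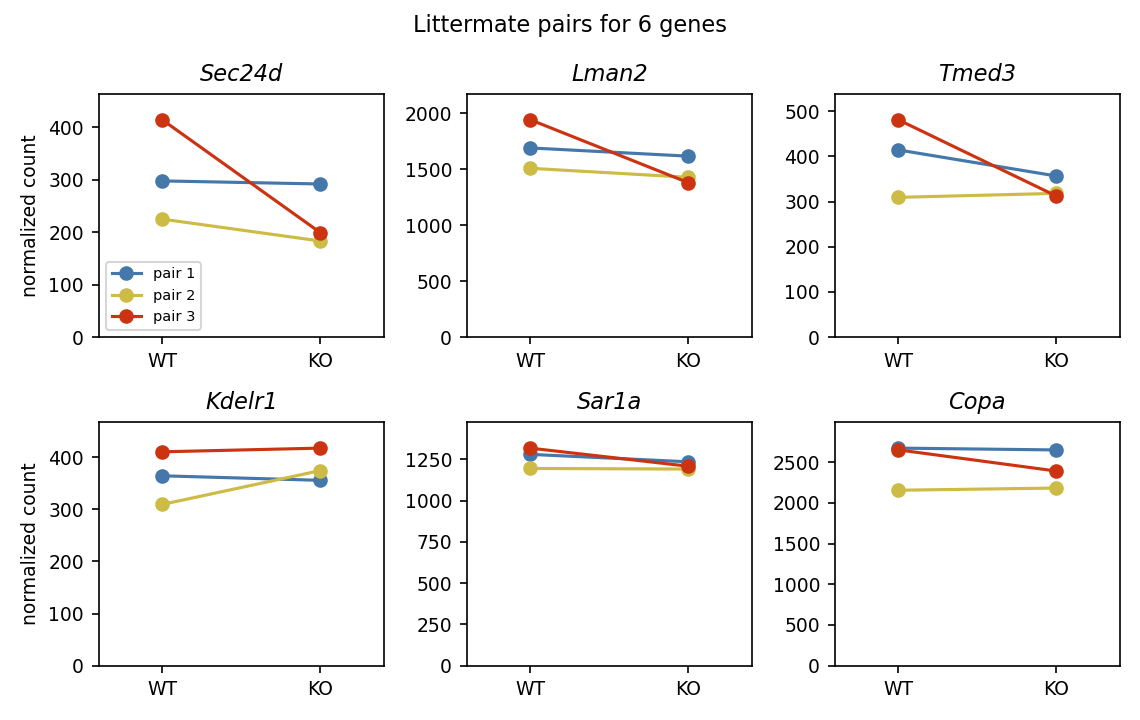
Normalized counts of 6 genes in the WT and KO libraries, with a line joining the littermates of each pair. The line of pair 3 drops most steeply for *Sec24d* (414 to 199), *Lman2* (1942 to 1378) and *Tmed3* (482 to 312), whereas *Kdelr1*, *Sar1a* and *Copa* have flatter lines.

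Over the libraries, the members did not follow genotype alone. The WT library of pair 3 was the highest of the 6 for 24 of 32 members, beside 23.1% of all genes tested, and the lowest library was WT or KO of pair 2 for 25 of 32, beside 34.2%. The median deviation of the members from their own mean over the 6 libraries, on the log2 scale, was 0.044, −0.11 and 0.21 in the WT libraries of pairs 1, 2 and 3 and 0.0062, −0.13 and −0.038 in the KO libraries. Over all genes tested these medians lay between 0.00025 and 0.0071. The medians of the WT libraries of pairs 2 and 3 thus lay further apart than those of the littermates in any pair. Leaving out only the WT library of pair 3, without the block, put 19 of 32 members below 0 (51% of all genes tested) with a median of −0.030.

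**Figure D4:**
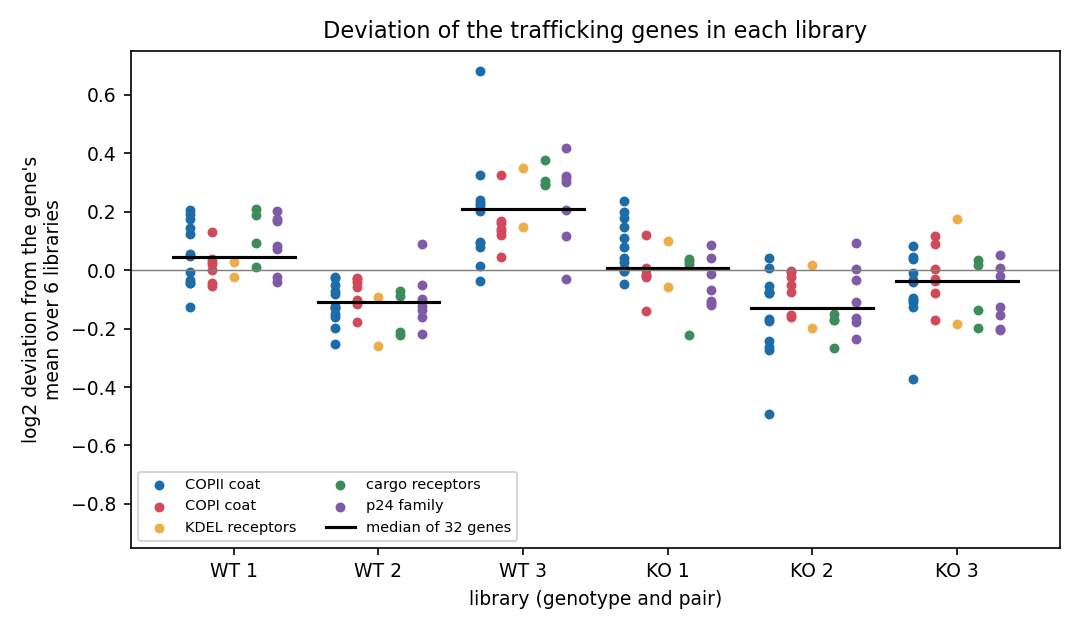
Log2 deviation of each gene from its mean over the 6 libraries, coloured by role, with a bar for the median of 32 genes in each library. WT of pair 3 lies highest (median 0.21), and both libraries of pair 2 lie lowest (−0.11 and −0.13).

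Plasmablast markers and Ig transcripts had a like order over the libraries. *Sdc1*, *Prdm1*, *Xbp1*, *Irf4*, *Jchain* and *Mzb1* summed to 15971, 12007 and 24686 normalized counts in the WT libraries of pairs 1, 2 and 3 and to 20449, 11616 and 14566 in the KO libraries, and Ig genes took 2.52%, 1.52% and 3.31% of all normalized counts in WT and 2.09%, 1.03% and 1.54% in KO. WT of pair 3 was the highest library and KO of pair 2 the lowest in both, as for many of the trafficking genes. The sum of the plasmablast markers was higher in KO of pair 1 than in its WT littermate. *Mzb1* alone of these 6 markers was lower in KO of pair 1. It was also the only 1 lower in every pair (log2 fold change −0.33), beside 13.1% of all genes tested. *Xbp1*, the regulator named above and the highest plasmablast marker, was highest in KO of pair 1, with 4092, 3215 and 6463 in WT and 6743, 3806 and 4906 in KO. *Hspa5*, the gene of BIP and a cargo of the KDEL receptors, had 12347, 9509 and 14369 in WT and 10252, 7608 and 9625 in KO. It was lower in KO in each pair (log2 −0.39), with an adjusted *p* of 0.693 in limma and of 0.031 in DESeq2, so that the call depends on the tool. *Creb3l1*, whose product is known to raise COPII genes in secretory cells, had a mean of 0.46 normalized counts, and *Creb3l2* had 62.3, 45.0 and 99.9 in WT and 95.3, 51.5 and 69.0 in KO. In bulk RNA, fewer cells of a type and less RNA per cell cannot be told apart, and the part of plasmablast content in the values of the members was not tested.

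Genes around the members in the pathway gave values of similar size. Of 59 further genes of ER-Golgi transport, 53 were tested, 41 had a negative log2 fold change, beside 49.8% of all genes tested, with a median of −0.057, and none passed an adjusted 0.05. Without pair 3, 34 of the 53 were negative, beside 51.2% of all genes, with a median of −0.040. At an unadjusted *p* under 0.05, 4 were lower and 0 higher, that is 4 of 53 beside 3.03% of all genes tested. The median was −0.033 for ARF GTPases with their regulators (8 genes), −0.051 for tethers and Rab1 (14), −0.075 for SNAREs (12), −0.070 for exit site organisers and export factors (14 of 15 tested) and −0.033 for coat paralogs and p24 relatives (5 of 10 tested). The 4 genes came from the lists of tethers and of SNAREs. *Stx18*, a SNARE that receives COPI vesicles at the ER, had 164, 139 and 155 normalized counts in WT and 116, 105 and 136 in KO (log2 fold change −0.36, SE 0.12). All KO libraries of *Stx18* were below all WT libraries, and its value without pair 3 was −0.45. *Nbas*, part of the tether at the ER that works with *Stx18*, had 929, 651 and 946 in WT and 855, 582 and 741 in KO (log2 fold change −0.21, SE 0.074). *Bet1*, a SNARE for COPII vesicles, had 292, 243 and 314 in WT and 239, 231 and 213 in KO (log2 fold change −0.31, SE 0.11), and here too all KO libraries were below all WT libraries. *Gorasp1*, the gene of the Golgi stacking protein GRASP65, had 246, 283 and 349 in WT and 223, 240 and 271 in KO (log2 fold change −0.25, SE 0.089). These 4 genes were lower in KO in each pair, and their adjusted *p* was 0.970 in limma. They were picked by their unadjusted *p*, so a shared direction partly follows from the choice. Of the 53 genes, 15 were lower in every pair and 3 higher, beside 13.1% and 11.7% of all genes tested. All KO libraries lay below all WT libraries for 4 of the 53, *Stx18* and *Bet1* among them, beside 3.44%. The tether gene *Trappc1* went the other way, with all KO libraries above all WT libraries (log2 fold change 0.26, SE 0.12).

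**Figure D5:**
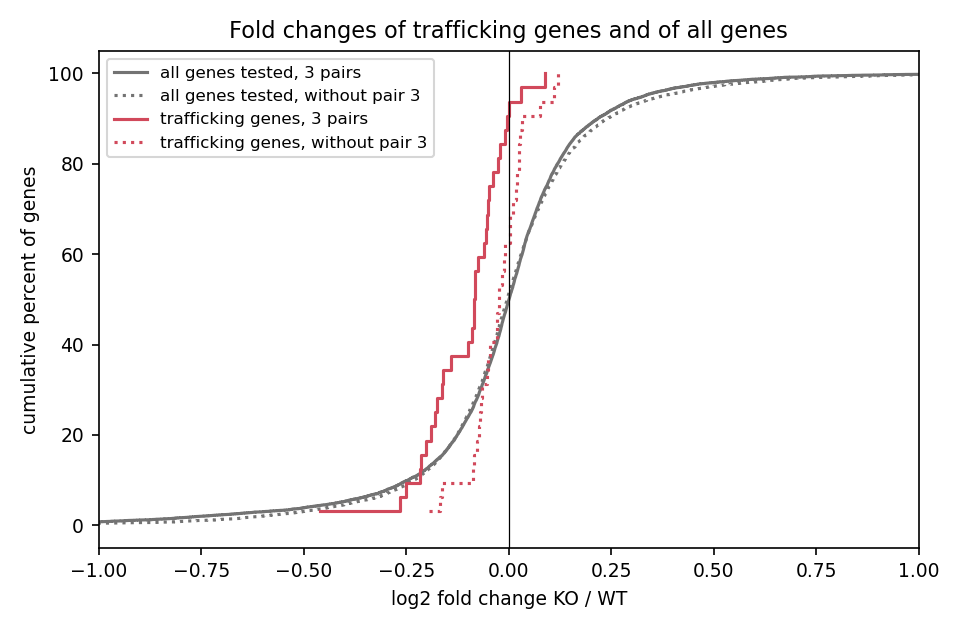
Cumulative percent of genes by log2 fold change of KO to WT for all genes tested (grey) and the 32 trafficking genes (red), with all 3 pairs (solid) and without pair 3 (dotted). The red solid line lies left of the grey one, with a median of −0.084, and without pair 3 it moves towards 0, to −0.023.

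A feature of the members that does not come from these libraries is the sequence before their start sites. RefSeq windows (GRCm38.p6) of 250 bases before and 50 after the annotated start were given for 28 of the 33 genes and were searched on both strands for 3 motifs of the unfolded protein response: UPRE, ERSE and ERSE-II. The XBP1 site core TGACGTGG (UPRE) was found in 5 of these 28 genes, beside 0.714% of the 27025 genes with a window. ERSE and ERSE-II were found in none of the 28, beside 0.137% and 0.0444% of all genes. The stretches with the UPRE core hold both the gene with the lowest log2 fold change and *Sec23a*, near 0, and are therefore shown. They are given on the strand of the gene from 120 bases before the start site, with the core or its reverse complement in capitals.
*Sec24d* (chr3:123267376-123267515, plus strand): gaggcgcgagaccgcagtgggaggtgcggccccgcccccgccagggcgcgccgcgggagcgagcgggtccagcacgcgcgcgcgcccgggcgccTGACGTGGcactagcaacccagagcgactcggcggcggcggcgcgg
*Sec23a* (chr12:59011998-59012137, minus strand): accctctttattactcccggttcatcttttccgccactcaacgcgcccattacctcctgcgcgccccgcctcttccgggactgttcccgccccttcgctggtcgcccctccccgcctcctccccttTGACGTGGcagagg
*Copb1* (chr7:114254661-114254800, minus strand): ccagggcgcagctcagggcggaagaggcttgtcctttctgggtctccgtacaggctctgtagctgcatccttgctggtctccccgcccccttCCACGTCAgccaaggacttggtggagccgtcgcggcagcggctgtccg
*Copb2* (chr9:98563611-98563750, plus strand): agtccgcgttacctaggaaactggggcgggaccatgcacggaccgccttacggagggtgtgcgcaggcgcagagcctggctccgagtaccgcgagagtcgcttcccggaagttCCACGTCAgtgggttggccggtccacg
*Kdelr3* (chr15:79516288-79516427, plus strand): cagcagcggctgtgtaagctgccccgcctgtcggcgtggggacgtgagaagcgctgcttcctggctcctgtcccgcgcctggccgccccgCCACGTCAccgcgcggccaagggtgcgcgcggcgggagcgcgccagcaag

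The core began 26 bases before the start site in *Sec24d*, 28 in *Copb1*, 7 in *Copb2* and 30 in *Kdelr3*, and 6 bases after it in *Sec23a*. The 4 of these genes that were tested had values from −0.46 to 0.0012. The log2 fold change of *Copb1* was −0.083 and that of *Copb2* −0.021, between *Sec24d* and *Sec23a*, while *Kdelr3* was too low to test. *Lman2*, *Tmed3* and *Mcfd2*, with the next lowest values among members with a window, had no match. A match of letters is a description, not a site.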

How the data were processed

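The authors trimmed reads (75 nt, paired) with cutadapt 1.18 and aligned them to GRCm38 with STAR 2.6.1a. With featureCounts (Subread 1.6.3) they counted strand-specific fragments of mapping quality 10 or more on Gencode vM19 exons. Both ends had to be mapped, and chimeric pairs were left out. The deposited values are a signal, namely these counts divided by a DESeq2 size factor per library, unfiltered, for 54446 genes. Such scaling removes a change shared by most transcripts. All values above 0 (100%) were whole multiples of 1 step per library (tolerance 0.01), which returned the fragments. Symbols, positions and exon lengths came from Gencode vM21, which matched 54409 identifiers.

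The test was limma 3.58.1 (R 4.3.3; lmFit, eBayes with trend, two-sided) on log2(normalized count + 1), over 12322 genes (mean of 10 or more), with genotype and pair in the model and Benjamini-Hochberg adjustment at 0.05. Fold changes on this scale understate those of low genes. Per the methods of the study the littermates of a number form a pair, and the deviations of same-numbered libraries correlated over genes with r = 0.33, 0.68 and 0.17. Those of differently numbered libraries ran from −0.50 to 0.28, WT of pair 3 being closer to KO of pair 1 (0.26) than to its own littermate, so the pairing rests on the littermates. edgeR 4.0.16 and DESeq2 1.42.0 on the recovered fragments, other pseudocounts, filters and scalings, no block, and each pair left out were alternatives. The fits were tested on simulated data with planted changes larger than those of the members, so this says nothing about changes of the members' size. With the pair in the model, the limma p-values measure the spread of the KO to WT difference between the 3 pairs, moderated over genes. The floor of 3 fragments equals 2.72 to 3.61 normalized counts.

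The members and lists were chosen with earlier results of these data known. The named genes are all members, *Tent5c*, other pathway genes with an unadjusted p under 0.05, up to 3 per list and direction, and the highest marker of each list (*Hspa5* for ER stress regulators). *Creb3l1* and *Creb3l2*, of the same list, were named after their values were seen. So was *Trappc1*, and the value of *Mzb1* was added in the same way. Some items of the marker lists are not reported here.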

Additional observations from a re-analysis of the deposited data

How the results depend on the processing

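No member passed an adjusted *p* of 0.05 in limma, edgeR or DESeq2 under the 15 alternatives run, the smallest being 0.111 (*Sec24d* without replicate 1). Over all genes, DESeq2 called 22 lower and 1 higher, and the fits without 1 replicate called 0 to 168 lower and 0 to 3 higher (168 and 3 without replicate 1). Members with an unadjusted *p* under 0.05 and lower in KO numbered 0 with no filter or a stricter one (a mean of 50 or more), under quantile normalization, in edgeR and without the replicate block (limma and edgeR), and 0 to 5 with 1 replicate left out. Members lower in every pair numbered 8 to 18 when 1 replicate was left out, where fewer pairs must share a sign. For the fits with 1 replicate left out, the shares of all genes tested were not taken for either count. Neither count is therefore read as a result about the members. The fit without the WT library of pair 3 and without the block was added after the data were seen. The median log2 fold change of the members ran from −0.12 to −0.023 and the number below 0 from 20 to 30 with 1 replicate left out, and they were −0.030 and 19 without that library, where 0 had an unadjusted *p* under 0.05. *Sec24a* was 0.0069 and *Sec24c* 0.0098 under quantile normalization, and *Sec23a* was −0.0017 with scaling without Ig genes, −0.00049 in edgeR and −0.0041 in edgeR without the block. With 1 replicate left out, the sign varied for the following genes, with log2 fold changes of −0.0029 to 0.069 for *Arcn1*, −0.081 to 0.0028 for *Copa*, −0.058 to 0.016 for *Copb2*, −0.26 to 0.0043 for *Cope*, −0.13 to 0.032 for *Copz1*, −0.0051 to 0.15 for *Kdelr1*, −0.17 to 0.024 for *Preb*, −0.15 to 0.076 for *Sec13*, −0.23 to 0.025 for *Sec16a*, −0.039 to 0.053 for *Sec23a*, −0.073 to 0.071 for *Sec24a*, −0.14 to 0.11 for *Sec24b*, −0.068 to 0.063 for *Sec24c*, −0.10 to 0.017 for *Sec31a*, −0.18 to 0.012 for *Tmed4* and −0.11 to 0.028 for *Tmed7*. Without that WT library, the values above 0 were *Sec24b* 0.056, *Sec24c* 0.033, *Sec31a* 0.053, *Sec13* 0.042, *Sec16a* 0.024, *Copa* 6.2e-05, *Copb2* 0.040, *Copz1* 0.0057, *Tmed4* 0.037 and *Tmed7* 0.025 for genes below 0 otherwise. Leaving out the replicate block changed no other call. With 1 KO and 1 WT library per pair, it cannot change a log2 fold change in limma. The median without the block, −0.084, is therefore no test of the pairing.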

Other observations

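*Bcap29*, the gene of an ER membrane protein listed with the exit site organisers and export factors, was singled out after its values were seen. It had 168, 408 and 0 normalized counts in the WT libraries of pairs 1, 2 and 3 and 0, 397 and 1.82 in the KO libraries. High and low libraries occurred in both genotypes, and the fitted log2 value was −1.98 with a standard error of 1.55. No member had such a pattern: over the 32 genes tested the lowest log2 ratio in any pair was −1.05 and the highest 0.27.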
